A study of Mus musculus with 12 samples.

Results

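The departure from additivity asks, gene by gene, whether the level in mice given both drugs differed from what the separate changes under each drug would give when combined. It was computed as the interaction on the log2 scale: combination minus PD-901 minus 5-azacitidine plus vehicle. An interaction of 0 means that the fold changes of both single agents multiplied, a negative value that the combination lay below that product level, and a positive value that it lay above. Every gene with enough counts was a member, which gave 17475 of the 56350 genes in the count table, and all 12 of 12 libraries entered each value. RNA of bone marrow cells was sequenced from 4 groups of 3 mice, 1 library a mouse. All mice, vehicle-treated ones included, were C57Bl/6J, carried Shp2E76K/+;LysM-Cre+, were about 12 to 14 weeks old and were of both sexes. The groups received vehicle, PD-901 (PD0325901, 5 mg/kg by gavage, 20 doses in 4 weeks), 5-azacitidine (5 mg/kg into the peritoneum, 5 doses in 4 weeks) or both (labelled Combo). Without a group of mice lacking the mutation, nothing here compares the drugs in healthy marrow.

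Shp2, encoded by Ptpn11, is a phosphatase that helps receptors switch on Ras, and the E76K change keeps it open and active. Ras signals through Raf, MEK and ERK, and PD-901 blocks MEK. ERK in turn raises immediate early genes and its own brakes, among them the dual-specificity phosphatases (Dusp) and Sprouty proteins. 5-azacitidine is a cytidine analogue built into RNA and DNA, where it traps DNA methyltransferases and lowers methylation. LysM-Cre is expressed from the Lyz2 locus, mainly in monocytes, macrophages and neutrophils, so lymphoid and erythroid cells of this marrow largely keep the normal allele. The mice model juvenile myelomonocytic leukaemia, and the series was set up to ask how both drugs act together.

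Total counts ran from 15356919 to 27148190 a library. Ptpn11 lay between 120.4 and 163 CPM (read counts scaled to library size) in all 12 libraries, with an interaction of 0.23 (standard error 0.18), and these gene counts do not show the mutant allele. Some libraries stood apart. Lyz2, the lysozyme gene of myeloid cells, measured 172, 147 and 3228 CPM in the vehicle libraries, 4182, 699.6 and 2566 with PD-901, 2773, 3389 and 1807 with 5-azacitidine, and 44.9, 55.9 and 1151 with both. The 4 lowest libraries were thus 2 vehicle and 2 combination libraries, the arms that enter the interaction with a plus sign. The Lyz2 interaction was -3.74 with a 95% interval from -8.85 to 1.37. Cre is expressed from this same locus and the labels do not give its copy number, so Lyz2 need not follow the number of myeloid cells. In a principal component analysis of the 500 genes with the highest variance, 5-azacitidine replicate 1 scored 14.8 on the leading component (43.7% of variance). The other single-agent and vehicle libraries scored -16.8 to 0.64, and the combination libraries 17.0 to 25.4. Xist, transcribed in female cells, was above 100 CPM in 3 vehicle, 2 PD-901, 1 5-azacitidine and 0 combination libraries. Xist entered the model for the interaction only. In every comparison of combination against vehicle below, the drugs and sex as read from Xist therefore cannot be told apart. The other comparisons between groups, such as the steps on adding 1 drug to the other, also set unequal numbers of such libraries against each other. The part of sex in them was not tested. The mitochondrial share of counts was 1.75% to 1.81% with both drugs, above its range of 1.01% to 1.72% elsewhere. The part of these differences in the results was not tested beyond the values given without single libraries, without the 4 Lyz2-low libraries, or with Lyz2 or Xist in the model. In bulk marrow, fewer cells of a type and less RNA per cell cannot be told apart.

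No gene departed from additivity past the threshold: edgeR's quasi-likelihood test called 0 genes higher and 0 lower (0% of those tested) at a Benjamini-Hochberg adjusted p under 0.05, the threshold used throughout. The smallest adjusted p was 0.0600, shared by Hsph1, Zhx2 and Dusp6. Without adjustment 1871 genes, 10.7% of those tested, had p under 0.05: 785 positive (4.49%) and 1086 negative (6.21%). Of all tested genes 48.2% had a positive interaction, and these shares are the background for the list counts below. Among the 116 genes with p under 0.001, 91 were negative and 25 positive. By DESeq2 75 genes passed as higher and 213 as lower, and by limma-voom 0 and 4, the latter being Dusp6, Hdc, Hsph1 and Zhx2, each at an adjusted p of 0.0481. The interaction draws on the error of all 4 groups, and its median standard error of 0.40 on the log2 scale exceeded the 0.28 of combination against vehicle. The edgeR count rested on 5-azacitidine replicate 1: without that library 18 genes were called higher and 132 lower. It also moved without vehicle replicate 3 (4 and 8), combination replicate 2 (0 and 20), combination replicate 3 (0 and 1) and PD-901 replicate 1 (0 and 1). Without vehicle replicate 2 the smallest adjusted p of any gene was 0.293, and without combination replicate 1 it was 0.140. With Lyz2 in the model the counts were 0 and 0, the smallest adjusted p was 0.472, and 1237 genes had unadjusted p under 0.05.

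Negative and positive departures had different shapes. Of the 1086 negative genes with unadjusted p under 0.05, 51.3% had both single agents above vehicle and combination (here called crossing). In 41.8% the combination was the group that stood farthest from the other 3. Of the 785 positive genes, 80.1% crossed the other way, with both single agents below vehicle and combination, and the combination stood farthest in 10.8%. Over all tested genes those shares were 13.8%, 29.2%, 14.6% and 29.2%. These are shares of genes of both signs, whereas a crossing of the group means fixes the sign, so they understate the background for crossing. Of all tested genes 9059 were negative and 8416 positive, and 2405 and 2555 genes crossed in the respective direction. Since the shape and the sign come from the same 4 group means, these shares describe the genes and are no test. Among the 50 genes with the lowest p, 43 were negative, and in 32 all 3 combination libraries lay below all 9 others, an ordering found for 5.14% of tested genes. The 50 were picked by p from these same libraries, and a low combination itself makes an interaction negative. Their excess over 5.14% is therefore no test either.

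**Figure D1:**
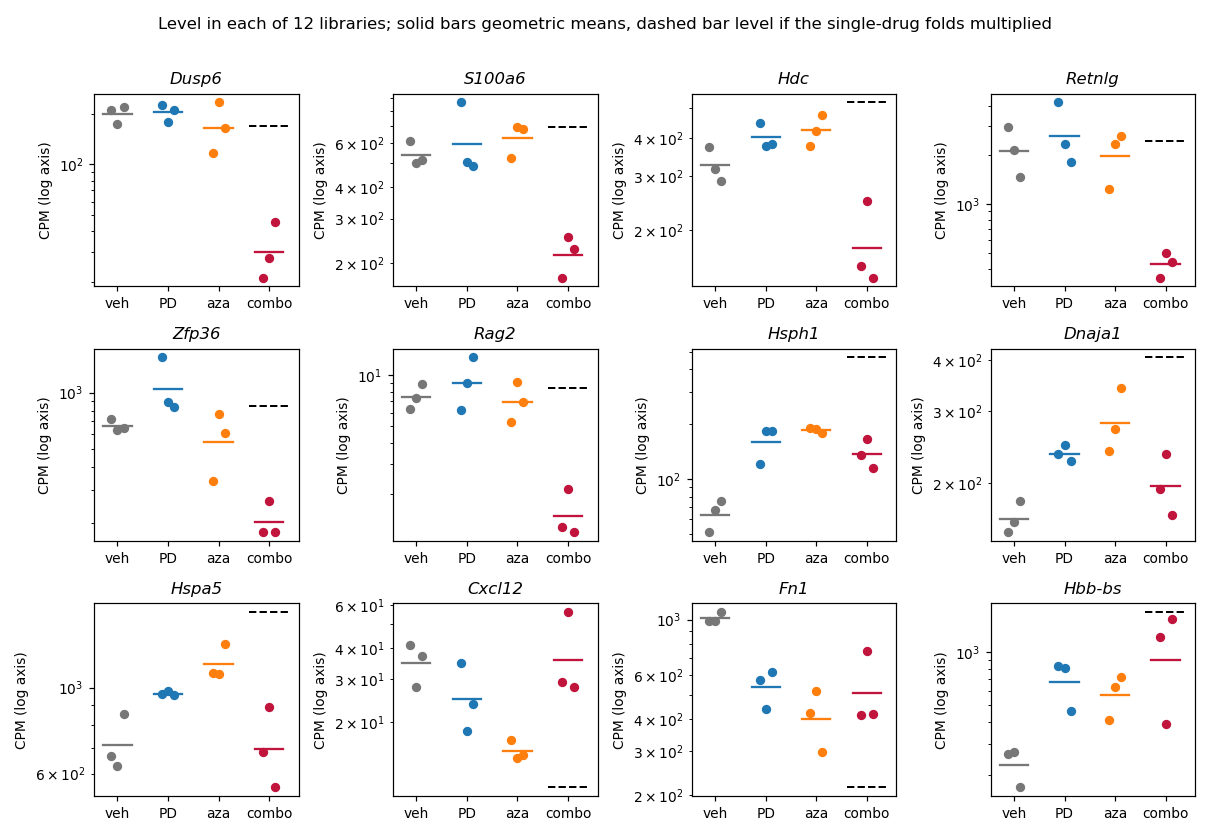
CPM of 12 genes in each of the 12 libraries (log axis), by group: points are mice, solid bars the geometric mean, and the dashed bar the combination level if the single-agent folds multiplied. For Dusp6 the combination libraries, 21.2 to 45.6 CPM, sit below every other library, whereas for Hsph1 they overlap the single-agent libraries at 115 to 166 CPM and lie far under the dashed bar.

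Brakes and outputs of ERK signalling tended to stand lowest with both drugs. Of 20 tested genes of this list 0 passed the interaction test, 18 were negative and 6 of those had unadjusted p under 0.05, with a median interaction of -0.63 against -0.02 for all genes. Dusp6, the cytoplasmic phosphatase that switches off ERK (chr10:99263231-99267489, plus strand, mm10), measured 209, 173 and 218 CPM with vehicle, 225, 179 and 211 with PD-901, 116, 233 and 164 with 5-azacitidine, and 21.2, 27.9 and 45.6 with both. The 3 vehicle and 3 PD-901 libraries overlapped, and every combination library lay below all others. Its fitted interaction was -2.47, a factor of 5.55 below multiplied folds (standard error 0.37, adjusted p 0.0600). The 5-azacitidine step, the change on adding 5-azacitidine, was -0.22 without PD-901 and -2.70 with it, and the latter passed (adjusted p 0.00193). The PD-901 step was 0.04 without and -2.43 with 5-azacitidine (adjusted p 0.00614 for the latter). Over the fits leaving out 1 library the adjusted p of the Dusp6 interaction ranged from 0.00508 to 0.293. Dusp6 passed the interaction test without 5-azacitidine replicate 1 (-2.69, adjusted p 0.0100) and without combination replicate 3 (-2.84, adjusted p 0.00508). Without the 4 Lyz2-low libraries it was -1.84 with an adjusted p of 0.223.

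Other genes of the list departed less, and the order of their groups varied. Dusp5, a nuclear phosphatase of ERK (chr19:53529109-53542431, plus strand), measured 19.6, 19.6 and 22.2 CPM with vehicle, 17.5, 20.7 and 15.4 with PD-901, 13.3, 23.1 and 14.2 with 5-azacitidine, and 5.14, 6.99 and 6.07 with both. The combination libraries lay below all others, and the interaction was -1.27 (standard error 0.32, adjusted p 0.167). Ier3, an early response gene that ERK phosphorylates, had its highest value, 103 CPM, in 1 PD-901 library, a vehicle range of 36.9 to 46.3 and a combination range of 18.1 to 28.4. Its interaction was -1.81 (adjusted p 0.104), and -1.44 without PD-901 replicate 1, the library of 103 CPM. Of the fits leaving out 1 library Ier3 passed in that without 5-azacitidine replicate 1 (-1.97, adjusted p 0.0243). Dusp2, another nuclear phosphatase, did so too, at -1.78 (adjusted p 0.0148) against -1.43 with all libraries. Etv5, a transcription factor that follows ERK activity, measured 18.1, 23.8 and 36.1 CPM with vehicle and 4.48, 7.85 and 12.9 with both. It fell with the combination against vehicle (log2 -1.62, adjusted p 0.00957), as did 7.97% of all genes. The single-agent changes were -0.53 and -0.48, and the interaction was -0.61 (standard error 0.49). Spry4, a Sprouty inhibitor, had an interaction of -1.35 (standard error 1.1), with 0.102, 0.408 and 3.59 CPM under both drugs. Without combination replicate 1 and without replicate 3 the values were -0.31 and -1.06 for Etv5, and -0.83 and -3.78 for Spry4. For both the sign turned without the 4 Lyz2-low libraries (0.46 and 0.45) and with Lyz2 in the model (0.38 for each), and the median of the list was then -0.26 without those libraries.

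The kinases and adaptors upstream of these outputs had departures of both signs. Of 31 tested genes for receptors' adaptors, Ras, Raf, MEK and ERK proteins, 18 were positive and 13 negative, with a median interaction of 0.12. Unadjusted p was under 0.05 for 2 positive genes (4.49% of all genes). Sos1, which loads Ras with GTP, measured 36.2, 36.8 and 34.2 CPM with vehicle, 26.7, 24.0 and 31.2 with PD-901, 35.8, 34.8 and 31.7 with 5-azacitidine, and 42.0, 50.8 and 43.4 with both. The combination libraries lay above all others for Sos1, as for 3.54% of all genes, with an interaction of 0.80 (adjusted p 0.165). Mapk3, which encodes ERK1, and Grb2, an adaptor between receptors and Sos1, had interactions of -0.52 (-0.34 without 5-azacitidine replicate 3) and -0.36, and both fell with the combination against vehicle (log2 -0.58 and -0.44, adjusted p 0.0393 and 0.0306).

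Immediate early genes are transcription factors and RNA regulators induced within minutes of a stimulus, and their median lay above vehicle with PD-901 alone and below it with both drugs. Of 20 tested genes 17 were negative, 10 of them with unadjusted p under 0.05, and the median interaction was -0.91. The median PD-901 step was 0.35 without 5-azacitidine and -1.06 with it. The 5-azacitidine step without PD-901, whose median was -0.38, passed for 0 of 20 genes (0% of all genes in that direction), and with PD-901, with a median of -1.68, 11 fell (5.12% of all genes). Because the interaction itself was called for 0 of them, that contrast of counts is no test of a difference.

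Zfp36, whose protein tristetraprolin hastens decay of inflammatory mRNAs (chr7:28376784-28380253, minus strand), measured 719.8, 629 and 649 CPM with vehicle, 1548, 888 and 834 with PD-901, 337, 771 and 607 with 5-azacitidine, and 177, 262 and 177 with both. All PD-901 libraries lay above all vehicle libraries and all combination libraries below everything else. The fitted interaction was -2.19, a factor of 4.55 below multiplied folds (standard error 0.40, adjusted p 0.104). Egr1, a zinc-finger factor induced through ERK, measured 53.5, 42.8 and 105 CPM with vehicle, 283, 124 and 149 with PD-901, 28.3, 77.2 and 32.6 with 5-azacitidine, and 17.5, 21.5 and 21.2 with both. For this gene PD-901 stood farthest from the other groups, on the high side, and the interaction was -2.66 (standard error 0.61, adjusted p 0.143). Klf2, a factor of leukocyte quiescence, and Ier2, a small nuclear early protein, had interactions of -2.06 and -1.65, with combination ranges of 58.4 to 83.3 and 121 to 156 CPM below all other libraries. Zfp36, Ier2 and Klf2 passed without 5-azacitidine replicate 1 (adjusted p 0.0100, 0.0182 and 0.0169). That library held the lowest value of the 5-azacitidine group for all 4 genes. Without PD-901 replicate 1, the highest PD-901 library for Zfp36 and Ier2, their interactions were -1.86 and -1.28. The list's median was -0.61 without 5-azacitidine replicate 2, -1.46 without vehicle replicate 3 and -1.55 without the 4 Lyz2-low libraries.

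Targets of NF-kB, the inflammatory transcription factor, had 16 of 21 tested genes negative, 8 of them with unadjusted p under 0.05, and a median of -0.61 (-0.35 without 5-azacitidine replicate 2). Tnf, the cytokine TNF, measured 29.6, 29.2 and 30.2 CPM with vehicle, 65.3, 36.9 and 32.1 with PD-901, 17.2, 23.2 and 28.8 with 5-azacitidine, and 11.6, 12.1 and 12.4 with both. Its groups did not overlap, in the order PD-901, vehicle, 5-azacitidine, combination. The Tnf interaction was -1.54 (adjusted p 0.132), and -1.71 (adjusted p 0.0267) without 5-azacitidine replicate 1. Without PD-901 replicate 1, the library with the highest Tnf value, it was -1.17. The inhibitors Nfkbia and Nfkbie, which hold NF-kB in the cytoplasm, had combination ranges of 90.4 to 99.1 and 13.5 to 17.4 CPM, below all other libraries, and interactions of -0.66 and -0.81. Ccl2, a monocyte chemokine, had 2.09 to 7.59 CPM over the other 9 libraries and 0.197 to 1.38 with both drugs.

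Promoter sequence was read for these induced genes because several of them shared an order of groups. The CArG box, bound by serum response factor at immediate early genes, was searched on both strands of the 250 bases before the start (RefSeq, GRCm38.p6). It was present for 2 of 17 immediate early genes and 1 of 15 ERK output genes with a listed promoter, and for 1.62% of all 27025 genes in the promoter table. Egr1 and Ier2 were not among those 17, so their promoters were not read. Boxes farther than 250 bases before a start were not searched for in any gene. One of the immediate early genes, Egr2, has a match before 4 of its starts but too few counts to be tested. The matches of the tested genes, in capitals, are in Zfp36 (chr7:28379229-28379378, minus strand) and in Dusp5 (chr19:53528995-53529144, plus strand), where 2 boxes adjoin:
Zfp36: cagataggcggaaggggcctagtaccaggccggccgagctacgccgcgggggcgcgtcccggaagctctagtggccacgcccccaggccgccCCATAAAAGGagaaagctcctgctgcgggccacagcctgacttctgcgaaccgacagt
Dusp5: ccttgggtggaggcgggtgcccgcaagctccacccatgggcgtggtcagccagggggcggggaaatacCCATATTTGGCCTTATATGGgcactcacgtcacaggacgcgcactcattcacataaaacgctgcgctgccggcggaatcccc
The match begins 58 bases before the Zfp36 start, and the boxes of Dusp5 begin 82 and 72 bases before its start. A match describes these letters and is neither a measured site nor a cause of the values above.

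Leading chaperones had another order of groups: levels with each single agent matched or exceeded those with both drugs. Of 23 tested heat shock genes 17 were negative, 9 with unadjusted p under 0.05, and the median interaction was -0.50. Hsph1, the large Hsp110 chaperone that recharges Hsp70 (chr5:149614287-149636376, minus strand), had the lowest p of all tested genes. It measured 50.9, 67.3 and 75.6 CPM with vehicle, 121, 183 and 183 with PD-901, 189.7, 189 and 179 with 5-azacitidine, and 135, 166 and 115 with both. All 9 treated libraries lay above all vehicle libraries, and the combination overlapped PD-901 but lay below 5-azacitidine. Multiplied folds would have given 465 CPM against a geometric mean of 137 in the combination. The fitted interaction was -1.75, a factor of 3.37 below multiplied folds (standard error 0.26, adjusted p 0.0600). Hsph1 rose with 5-azacitidine (log2 1.52, adjusted p 0.0115), the single gene of 17475 to rise in that comparison (0.00572%), and with the combination against vehicle (1.1, adjusted p 0.00334). The step on adding 5-azacitidine to PD-901 was -0.23 and that on adding PD-901 to 5-azacitidine -0.42, neither past the threshold.

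The other leading chaperones repeated that order at smaller size. Dnaja1, an Hsp40 partner of Hsp70 (chr4:40722150-40737149, plus strand), measured 152, 160.5 and 181 CPM with vehicle, 236, 248 and 226 with PD-901, 239.6, 271 and 342 with 5-azacitidine, and 194, 236 and 167 with both. Hspa5, the BiP chaperone of the endoplasmic reticulum (chr2:34771970-34777547, plus strand), measured 665, 629 and 856 CPM with vehicle, 960.3, 977 and 956 with PD-901, 1089, 1084 and 1297 with 5-azacitidine, and 684, 891 and 553 with both. For Hspa5 all 6 single-agent libraries lay above all 6 vehicle and combination libraries, an ordering found in 19 tested genes (0.109%). Interactions were -1.04 for Dnaja1, -1.13 for Hspa5 and -1.15 for Chordc1, an Hsp90 cochaperone, with adjusted p of 0.118, 0.126 and 0.105. Hsph1, Dnaja1, Hspa5 and Chordc1 passed without 5-azacitidine replicate 1 (adjusted p 0.0148, 0.0257, 0.0495 and 0.0213), and the first 3 also without combination replicate 2 (0.0102, 0.0463 and 0.0270). With other single libraries left out their adjusted p reached 0.293, 0.375, 0.382 and 0.297. Hsph1 further passed without vehicle replicate 3 (0.0268), without PD-901 replicate 1 (0.0120) and without the 4 Lyz2-low libraries (-1.81, adjusted p 0.0326), the only chaperone of these 4 to do so.

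Of 19 chaperones with a listed promoter, 9 (47.4%) held the core of the heat shock element, GAANNTTC or TTCNNGAA on either strand, in the 250 bases before a start, against 14.5% of all 27025 genes. Both spellings can overlap one another, and Hspd1 and Hspe1 share a promoter region. Hsph1 (chr5:149636337-149636486, minus strand) and Dnaja1 (chr4:40722318-40722467, plus strand) hold it, while Hspa5 (chr2:34771940-34772089, plus strand) instead holds the endoplasmic reticulum stress element, CCAAT and CCACG with 9 bases between them, found for 0.13% of all genes. Capitals mark the matches:
Hsph1: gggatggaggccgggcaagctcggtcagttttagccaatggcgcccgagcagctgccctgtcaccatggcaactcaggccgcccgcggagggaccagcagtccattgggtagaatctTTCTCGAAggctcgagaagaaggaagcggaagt
Dnaja1: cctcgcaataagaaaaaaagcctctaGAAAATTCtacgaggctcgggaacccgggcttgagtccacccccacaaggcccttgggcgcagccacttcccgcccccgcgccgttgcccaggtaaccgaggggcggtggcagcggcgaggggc
Hspa5: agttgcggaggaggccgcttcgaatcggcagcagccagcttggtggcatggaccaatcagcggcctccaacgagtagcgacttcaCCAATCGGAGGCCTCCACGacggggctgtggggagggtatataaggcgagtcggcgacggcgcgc
These matches begin 33, 124 and 65 bases before the start site used. Dnaja1 and Hsph1 have further annotated starts, and for Dnaja1 the windows of the other starts hold no match.

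**Figure D2:**
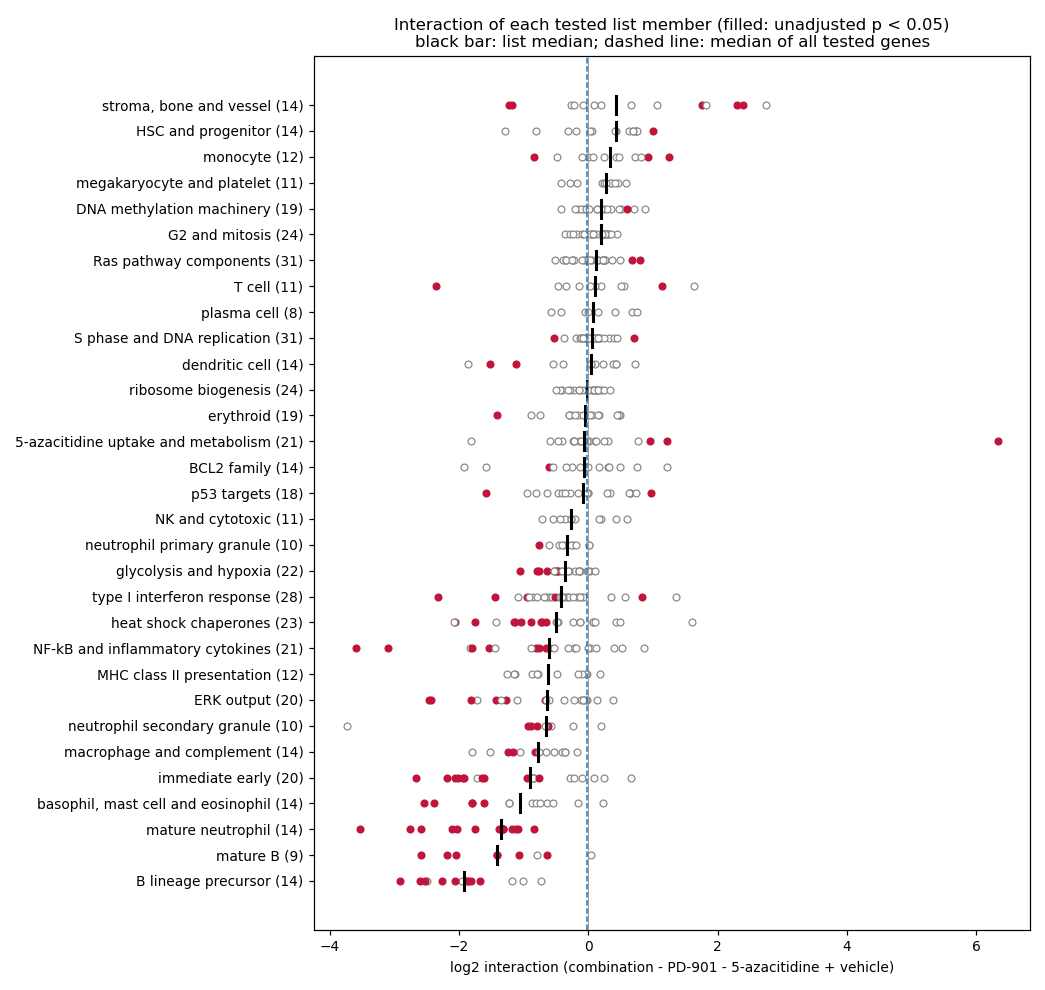
Log2 interaction of every tested member of each gene list: filled points have unadjusted p under 0.05, black bars are list medians, and the dashed line is the median of all tested genes (-0.02). All 14 mature neutrophil and all 14 B lineage precursor genes lie left of 0, while S phase and ribosome biogenesis genes centre near it.

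Among the 31 lists, that of mature neutrophils was the one whose tested genes all had unadjusted p under 0.05. All 14 were negative, and 0 passed after adjustment. The median interaction was -1.35, and in 11 all combination libraries lay below all 9 others. The list's summed level was 16350 to 32432 CPM with vehicle, 22689 to 36511 with PD-901, 22665 to 31962 with 5-azacitidine and 10683 to 14180 with both. Adding 5-azacitidine alone lowered 0 of 14 genes past the threshold (0% of all genes). Adding it to PD-901 lowered 14 of 14 (5.12%), and adding PD-901 to 5-azacitidine lowered 6 of 14 (1.07%). With 0 of 14 interactions called, these counts do not show a difference between the steps. The median was -1.12 without vehicle replicate 3, -1.66 without combination replicate 2 and -2.23 without the 4 Lyz2-low libraries.

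Retnlg, a resistin-like protein secreted by neutrophils (chr16:48872621-48874496, plus strand), measured 2947, 2142 and 1452 CPM with vehicle, 4180.1, 2316 and 1793 with PD-901, 1225, 2335 and 2611 with 5-azacitidine, and 353, 501 and 440.1 with both. Vehicle and both single agents overlapped, and the combination lay below them all. The fitted interaction was -2.6, a factor of 6.04 below multiplied folds (standard error 0.48, adjusted p 0.104). Clec4d, a C-type lectin receptor for fungal and mycobacterial glycolipids, had the widest departure of the list at -3.54 (standard error 0.66, adjusted p 0.105), with 10.1 to 22.9 CPM in the combination and 31.7 to 157 elsewhere. Il1r2, the decoy receptor for interleukin-1, had an interaction of -2.03 (adjusted p 0.134) and did overlap between combination (24.2 to 40.5 CPM) and vehicle (34.7 to 74.4). Stfa2l1, a stefin of the cystatin family, had -2.76 (adjusted p 0.104), but it has near-identical copies on chromosome 16 among which reads could be split. Retnlg, Stfa2l1, Clec4d and Il1r2 passed without 5-azacitidine replicate 1 (adjusted p 0.0169, 0.0119, 0.0100 and 0.0181). That library held the lowest 5-azacitidine value of all 4.

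Granule genes of earlier neutrophil stages had medians nearer 0. The secondary granule list, made in myelocytes, had 9 of 10 tested genes negative, 4 with unadjusted p under 0.05 (6.21% of all genes), and a median of -0.66. Camp, the cathelicidin antimicrobial peptide, had 1150.2 to 1317 CPM with both drugs and 1290.3 to 2295 elsewhere, and an interaction of -0.80. Ltf and Lcn2, the iron-binding lactoferrin and the siderophore-binding lipocalin, had -0.88 and -0.94. The primary granule list, made in promyelocytes, had 8 of 10 negative and a median of -0.32 (-0.08 without 5-azacitidine replicate 3, -0.53 without 5-azacitidine replicate 2). Of the negative genes 1 had unadjusted p under 0.05 (6.21% of all genes): Cebpe, a granulocyte transcription factor, at -0.77.

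Genes of the same direction outside these lists included S100a6 and Hdc, which were among the 5 negative genes with the lowest p. S100a6, a calcium-binding protein (chr3:90612882-90624181, plus strand), measured 608, 499 and 513 CPM with vehicle, 868, 503 and 484 with PD-901, 524, 691 and 683 with 5-azacitidine, and 175, 253 and 227 with both. Hdc, the enzyme that makes histamine from histidine (chr2:126593667-126619299, minus strand), measured 374, 317 and 289 CPM with vehicle, 448, 377 and 382 with PD-901, 377, 421 and 475 with 5-azacitidine, and 152, 248 and 139.8 with both. For Hdc every single-agent library exceeded every vehicle library and every combination library lay below them. Zhx2, a zinc-finger and homeobox repressor (chr15:57694665-57839832, plus strand), measured 20.1, 14.3 and 13.6 CPM with vehicle, 34.9, 22.2 and 25.5 with PD-901, 22.4, 17.9 and 17.2 with 5-azacitidine, and 8.24, 8.36 and 7.30 with both. Interactions were -1.73 for S100a6 (standard error 0.30, adjusted p 0.104), -1.54 for Hdc (0.27, adjusted p 0.104) and -2.05 for Zhx2 (0.31, adjusted p 0.0600). All 3 passed without 5-azacitidine replicate 1 (adjusted p 0.0166, 0.0181 and 0.0148) and without combination replicate 2 (0.0307, 0.0037 and 0.0240). With other single libraries left out the adjusted p of each reached 0.293. Zhx2 also passed without vehicle replicate 3 (0.0445), and Hdc and Zhx2 without the 4 Lyz2-low libraries (-2.10 and -2.43, adjusted p 0.00878 and 0.0427). Without the 4 libraries S100a6 stood at -1.77 with an adjusted p of 0.236.

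**Figure D3:**
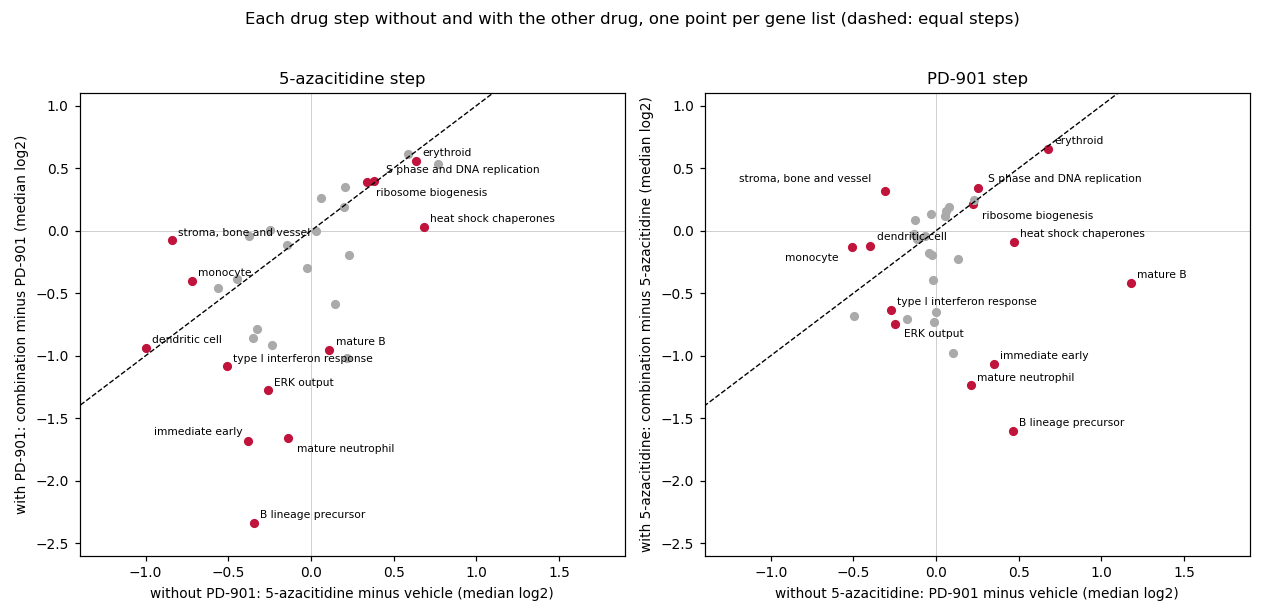
Median log2 change of each gene list on adding 5-azacitidine (left) or PD-901 (right), without the other drug (x axis) and with it (y axis); each point is a list, red points are labelled and the dashed line marks equal steps. B lineage precursor genes sit at -0.34 without and -2.34 with PD-901 on the left, far below the line, while erythroid genes sit close to it in both panels.

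B lineage precursor genes, which mark pro-B and pre-B cells, were all negative: 14 of 14 tested, 9 with unadjusted p under 0.05, with a median of -1.92. Their summed level was 546 to 612 CPM with vehicle, 744 to 826 with PD-901, 216 to 625 with 5-azacitidine and 107 to 277 with both. The 5-azacitidine group therefore spanned from below the lowest vehicle library to above the highest. Adding 5-azacitidine to PD-901 lowered 12 of 14 genes (5.12% of all genes), and adding it alone lowered 0 (0%), but the interaction was called for 0 of 14, so these counts do not show a difference between the steps. The list's median was -1.51 without 5-azacitidine replicate 2 and -2.57 without combination replicate 2.

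Rag2, a subunit of the recombinase that joins antigen receptor segments (chr2:101624718-101632529, plus strand), measured 6.32, 7.35 and 8.90 CPM with vehicle, 6.23, 8.97 and 12.7 with PD-901, 5.28, 9.15 and 6.95 with 5-azacitidine, and 1.27, 2.14 and 1.18 with both. The other 3 groups overlapped and the combination lay below them all, with an interaction of -2.53 (standard error 0.48, adjusted p 0.104). Cd79a, a signalling chain of the B cell receptor (chr7:24897381-24902197, plus strand), measured 92.0, 83.0 and 88.0 CPM with vehicle, 158, 164 and 117 with PD-901, 39.0, 122 and 77.4 with 5-azacitidine, and 24.7, 45.0 and 25.3 with both. The library of 5-azacitidine replicate 1 lay within the combination range for Cd79a, and the interaction was -2.07 (adjusted p 0.142). Vpreb3, a chaperone of the pre-B receptor, and Ebf1, a factor that commits cells to the B lineage, had interactions of -2.91 and -1.86. Rag2, Cd79a and Vpreb3 passed without 5-azacitidine replicate 1 (adjusted p 0.0203, 0.0120 and 0.0181), Rag2 and Ebf1 without combination replicate 2 (0.0409 and 0.00605), and Ebf1 without the 4 Lyz2-low libraries (-2.29, adjusted p 0.0479).

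Of 9 tested mature B cell genes 8 were negative, 7 with unadjusted p under 0.05, and the median was -1.41. The median was -0.85 without 5-azacitidine replicate 2, with 4 genes of unadjusted p under 0.05, and -1.77 without combination replicate 2. The median PD-901 step was 1.18 without 5-azacitidine and -0.42 with it, and 0 of 9 passed in the former. Fcmr, the receptor for immunoglobulin M, measured 10.4, 9.17 and 8.27 CPM with vehicle, 29.4, 30.9 and 15.8 with PD-901, 11.7, 22.1 and 10.05 with 5-azacitidine, and 6.92, 12.3 and 7.14 with both. Ms4a1, which encodes CD20, measured 9.73, 12.7 and 10.3 CPM with vehicle, 26.6, 27.9 and 23.3 with PD-901, 8.37, 25.2 and 10.6 with 5-azacitidine, and 4.38, 13.4 and 7.57 with both. For both genes the combination overlapped vehicle and lay below PD-901, with interactions of -2.18 and -2.05 (adjusted p 0.121 and 0.2). Fcmr passed without 5-azacitidine replicate 1 (adjusted p 0.0438). Cr2, complement receptor CD21 of mature B cells, had all 9 treated libraries at 1.76 to 7.65 CPM, above the 0.506 to 1.43 of vehicle, and an interaction of -2.59. Cd37, a tetraspanin, had an interaction of -0.64.

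Among granulocytes of allergy, basophil, mast cell and eosinophil genes were negative in 13 of 14 tested, 6 with unadjusted p under 0.05, with a median of -1.05. That median was -0.71 without 5-azacitidine replicate 2, -1.29 without PD-901 replicate 1 and -0.51 without the 4 Lyz2-low libraries. The list's summed level was 1123 to 1941 CPM with vehicle, 1068 to 1757 with PD-901, 1330 to 1926 with 5-azacitidine and 590 to 813 with both. Ear1, an eosinophil ribonuclease, measured 14.3, 18.2 and 40.3 CPM with vehicle, 39.4, 31.1 and 43.3 with PD-901, 37.3, 43.4 and 48.9 with 5-azacitidine, and 12.7, 7.14 and 14.7 with both. Vehicle replicate 3 lay with the single agents and the other 2 vehicle libraries near the combination. The interaction was -2.55 (standard error 0.47, adjusted p 0.104), and -3.13 (adjusted p 0.0024) without vehicle replicate 3. Without the 4 Lyz2-low libraries it was -1.49. Ear2 and Ear6 had interactions of -1.80 and -2.39, and since these ribonucleases are near-identical paralogs, reads could be split among them. Without 5-azacitidine replicate 1 Ear1, Ear2 and Ear6 passed (adjusted p 0.0389, 0.0181 and 0.0270), and Ear2 also without vehicle replicate 3 (0.0268). Epx, the peroxidase of eosinophil granules, had an interaction of -1.81, with 48.4 to 110.2 CPM in the combination and 79.8 to 194 in the vehicle and PD-901 libraries.

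Macrophage and monocyte genes had medians of opposite sign. All 14 tested macrophage and complement genes were negative, 3 with unadjusted p under 0.05 (6.21% of all genes). Their median was -0.77, and it was -0.33 without 5-azacitidine replicate 2, -1.13 without vehicle replicate 3 and -0.10 without the 4 Lyz2-low libraries. Vcam1, an adhesion molecule of marrow macrophages and stroma, and Hmox1, which degrades heme, had interactions of -0.83 and -1.17, and Hmox1 passed without 5-azacitidine replicate 1 (-1.46, adjusted p 0.0359). C1qa, a chain of complement C1q, measured 12.3 to 29.0 CPM with both drugs and 39.7 to 191 elsewhere, with an interaction of -1.80 (standard error 0.88) that was -1.05 without 5-azacitidine replicate 2 and -2.82 without vehicle replicate 3. Monocyte genes were positive in 9 of 12 tested, with a median of 0.34 that ranged from -0.02 to 0.58 as single libraries were left out. Fn1, fibronectin (chr1:71585520-71653200, minus strand), measured 984, 985 and 1070.4 CPM with vehicle, 573, 442 and 618 with PD-901, 423, 521 and 295 with 5-azacitidine, and 417, 748 and 422 with both. Every treated library lay below every vehicle library and the 3 treated groups overlapped. The product level was 214 CPM and the geometric mean of the combination 509, a departure that did not pass the threshold. The Fn1 interaction was 1.25 (standard error 0.33, adjusted p 0.187). F13a1, a coagulation factor subunit made by monocytes, had an interaction of 0.92, and of 0.50 without combination replicate 2.

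Positive departures were led by genes whose mean with each single agent lay below the vehicle and the combination means, though single libraries could overlap. Cxcl12, the chemokine that retains stem and B lineage cells in marrow (chr6:117168535-117181367, plus strand), measured 41.3, 27.8 and 37.2 CPM with vehicle, 34.9, 18.4 and 23.8 with PD-901, 17.0, 14.4 and 14.7 with 5-azacitidine, and 29.2, 56.0 and 27.8 with both. The 5-azacitidine libraries lay below all others, and vehicle and combination overlapped. The interaction was 1.75 (standard error 0.39, adjusted p 0.134), and adding PD-901 to 5-azacitidine raised Cxcl12 (log2 1.29, adjusted p 0.0391). Pdgfrb, a platelet-derived growth factor receptor of perivascular cells, measured 4.56, 2.61 and 3.12 CPM with vehicle, 2.22, 2.87 and 2.55 with PD-901, 1.25, 1.57 and 1.34 with 5-azacitidine, and 5.04, 6.12 and 4.14 with both. Its interaction was 2.30 (standard error 0.50, adjusted p 0.127), and it too rose on adding PD-901 to 5-azacitidine (1.87, adjusted p 0.0303), a rise found for 0.252% of all genes. The stroma, bone and vessel list as a whole had 9 of 14 positive and a median of 0.43 (0.14 without PD-901 replicate 3, 0.81 without 5-azacitidine replicate 3), but its collagens Col1a1 and Col1a2 went the other way at -1.23 and -1.19. Col1a1 passed without 5-azacitidine replicate 1 (-1.43, adjusted p 0.0294). Without the 4 Lyz2-low libraries the list's median was -0.03.

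Genes outside the lists led the positive side as well. Phka2, a regulatory subunit of phosphorylase kinase in glycogen breakdown (chrX:160502166-160598878, plus strand), measured 71.6, 70.6 and 72.4 CPM with vehicle, 56.4, 48.1 and 59.8 with PD-901, 58.2, 52.5 and 52.98 with 5-azacitidine, and 73.7, 81.9 and 73.5 with both. In Phka2 all 6 single-agent libraries lay below all 6 vehicle and combination libraries, an ordering found in 39 tested genes (0.223%). Tbc1d24, a TBC-domain protein of vesicle traffic (chr17:24175431-24205562, minus strand), measured 34.3, 29.0 and 31.3 CPM with vehicle, 24.2, 24.3 and 27.3 with PD-901, 34.4, 24.6 and 26.6 with 5-azacitidine, and 45.0, 50.3 and 69.4 with both. The combination was above all others there, and Tbc1d24 rose with both drugs against vehicle (log2 0.80, adjusted p 0.00994). Interactions were 0.87 for Phka2 and 1.27 for Tbc1d24 (adjusted p 0.105 for each), and both passed without 5-azacitidine replicate 1 (0.0327 and 0.0181). Stem and progenitor genes were positive in 10 of 14 with a median of 0.42, which was 0.25 without PD-901 replicate 1 and 0.14 without the 4 Lyz2-low libraries. Among them were Kit, the stem cell factor receptor, at 0.73 and Hlf, a stem cell transcription factor, at 1.00. Kit measured 59.9 to 85.9 CPM with 5-azacitidine and 104 to 114 with both, and passed without 5-azacitidine replicate 1 (0.87, adjusted p 0.0474). In none of the genes of this list, Kit included, did the combination libraries all lie above all other libraries.

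**Figure D4:**
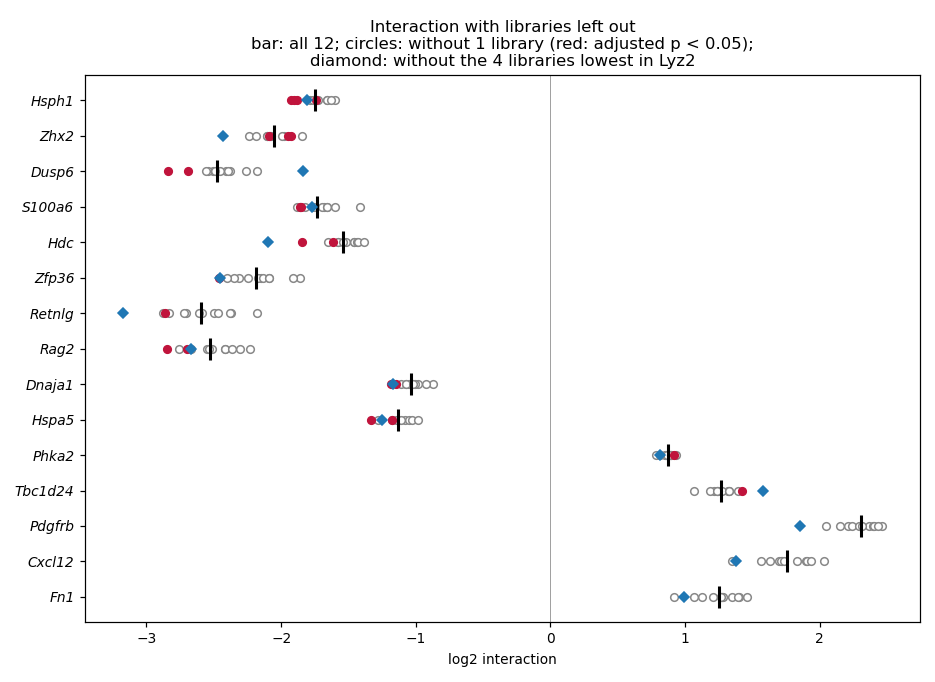
Log2 interaction of 15 genes with all 12 libraries (black bar), with each library left out (circles, filled red where the adjusted p is under 0.05) and without the 4 Lyz2-low libraries (diamond). Hsph1 stays between -1.93 and -1.60 as single libraries are left out, and Dusp6 has its diamond nearer 0, at -1.84. Blue marks the diamonds, and the 15 genes keep the sign of the bar in all fits shown.

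Red cell, replication and ribosome genes lay close to multiplied folds. Erythroid genes had 8 positive and 11 negative of 19 tested, and a median of -0.05 that ranged from -0.42 to 0.26 as single libraries were left out. The median PD-901 step was 0.68 without and 0.65 with 5-azacitidine, and the median 5-azacitidine step 0.63 without and 0.56 with PD-901. Against vehicle 18 of 19 rose with the combination (5.78% of all genes). Hbb-bs, adult beta globin (chr7:103826534-103828096, minus strand), measured 262, 268 and 169.6 CPM with vehicle, 826, 807 and 463 with PD-901, 407, 628 and 715 with 5-azacitidine, and 1218, 387 and 1527 with both. All treated libraries exceeded all vehicle libraries, and the combination spread from the lowest to the highest treated value. Its interaction was -0.74 (-0.35 without combination replicate 2, -1.12 without combination replicate 3) with a 95% interval from -2.0 to 0.51, which includes both 0 and a product level missed by more than 2-fold. Ermap, an erythroid membrane adhesion protein, had an interaction of 0.49 (0.07 without combination replicate 3), and the alpha globin Hba-a2 had -1.42 with reads that could be split with its near-identical copy Hba-a1.

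S phase and DNA replication genes had a median interaction of 0.05 over 31 tested, 18 positive and 13 negative, and single values from -0.52 to 0.70. Their median 5-azacitidine step was 0.38 without and 0.40 with PD-901, and 29 of 31 rose with the combination against vehicle (5.78% of all genes). Pole, the catalytic subunit of DNA polymerase epsilon, measured 56.3, 70.9 and 60.9 CPM with vehicle, 55.3, 60.6 and 73.6 with PD-901, 80.6, 60.6 and 39.9 with 5-azacitidine, and 85.1, 99.0 and 112 with both. Gins4, of the replicative helicase, had both single agents as high as the combination, and the interactions were 0.70 for Pole and -0.52 for Gins4 (-0.33 without 5-azacitidine replicate 3). Ribosome biogenesis genes had 11 of 24 positive, a median of -0.02 and 0 with unadjusted p under 0.05. G2 and mitosis genes had 18 of 24 positive and a median of 0.20, with Aurka, a spindle kinase, at -0.35 and the proliferation marker Mki67 at 0.31 (standard error 0.29). Without vehicle replicate 2 the median was 0.09 and Mki67 at 0.17. For single genes the intervals were wide, so these values do not show that folds multiplied exactly.

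The medians of the lists for 5-azacitidine's targets and metabolism and for the p53 response were near 0. DNA methylation genes were positive in 13 of 19 with a median of 0.20. Dnmt1, the maintenance methyltransferase that the drug traps, measured 343, 404 and 350.4 CPM with vehicle, 307, 373 and 430.0 with PD-901, 499, 314 and 331 with 5-azacitidine, and 411, 532 and 531 with both. Combination and 5-azacitidine overlapped, and the Dnmt1 interaction was 0.35 (standard error 0.26), and 0.23 without PD-901 replicate 1 or 0.59 without 5-azacitidine replicate 1. Dnmt3b, a de novo methyltransferase, had 0.88, and 0.41 without combination replicate 2. Cda, the deaminase that inactivates 5-azacitidine, was near 0 in 2 groups, with 0 to 0.247 CPM with vehicle and 0 in all PD-901 libraries, against 0.232 to 1.91 with 5-azacitidine and 1.07 to 5.85 with both. Its fitted interaction of 6.33 (standard error 1.96) depends on the prior count, since a whole group is at 0, and is no measure of size. Genes of 5-azacitidine uptake and metabolism, Cda among them, had a median of -0.07, and Slc29a3, a nucleoside transporter of lysosomes, was at 0.95. Of p53 targets, Cdkn1a, the cell cycle inhibitor p21, measured 17.3, 22.8 and 25.6 CPM with vehicle, 14.9, 15.7 and 22.1 with PD-901, 25.3, 31.7 and 20.3 with 5-azacitidine, and 32.4, 28.8 and 35.6 with both, an interaction of 0.65 (standard error 0.30, unadjusted p 0.0479, adjusted p 0.461). The proapoptotic Pmaip1 (Noxa) had -1.58 and Zmat3, an RNA-binding p53 target, 0.97, while the list's median was -0.09. In the BCL2 family, whose median was -0.07, the survival genes Bcl2l1 and Mcl1 had -0.60 and -0.54 (Mcl1 -0.35 without 5-azacitidine replicate 2).

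Type I interferon response genes were negative in 24 of 28, with a median of -0.42. Unadjusted p was under 0.05 for 4 negative genes (6.21% of all genes) and 1 positive gene (4.49%). Without 5-azacitidine replicate 2 that median was -0.03, with 15 negative and 13 positive genes. Oas3, a sensor of double-stranded RNA, measured 187, 219.7 and 213 CPM with vehicle, 172, 172 and 244 with PD-901, 139, 183 and 119 with 5-azacitidine, and 52.4, 96.1 and 69.2 with both, an interaction of -0.95. The combination lay below all other libraries for Oas3, but for Ifit2, which blocks viral mRNA translation, it lay within the vehicle range and the interaction was 0.83. Rtp4, an interferon-induced chaperone of receptors, had -2.33 and passed without 5-azacitidine replicate 1 (-2.76, adjusted p 0.0148), the library in which it was lowest within that group. Glycolysis and hypoxia genes were negative in 20 of 22, 7 with unadjusted p under 0.05, with a median of -0.36, and among them Hk3, a hexokinase of myeloid cells, had -0.80 and Pkm, pyruvate kinase, -0.65. MHC class II genes had a median of -0.63 and 0 of 12 with unadjusted p under 0.05. In Cd74, the invariant chain, vehicle replicate 3 read 2079 CPM against 609.6 and 839.8 in the other vehicle libraries, and the list's median ran from -0.91 without that library to 0.03 without 5-azacitidine replicate 2. Dendritic cell, plasma cell, T cell, natural killer and megakaryocyte lists had medians of 0.04, 0.07, 0.11, -0.27 and 0.27. The medians for dendritic, T and natural killer cells changed sign with 1 library left out, with ranges of -0.11 to 0.35, -0.03 to 0.49 and -0.51 to 0.19. Among them Ly6d and Itgax of dendritic cells had -1.52 and -1.12, and the T cell genes Cd3d and Cd4 had -2.36 and 1.14. Without 5-azacitidine replicate 2 Itgax was at -0.57 and Cd3d at -1.06.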

How the data were processed

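RNA of marrow cells from 12 mice was measured, and samples were grouped by the treatment in the labels. Replicates are separate mice per the series text, and their numbers follow accession order and pair nothing. The values the authors deposited are raw counts of reads for each gene, not normalized. Per the submitters' processing notes bcl2fastq, STAR 2.7.2a, featureCounts and Subread 1.6.5 were used with mm10. Overlapping genes could share reads, as annotation release and strand setting are each "not given in the sources used here". Coordinates are those of GENCODE M21 for identifiers of the table, and promoters come from RefSeq (GRCm38.p6).

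Counts were analysed with edgeR 4.0.16 in R 4.3.3. The filterByExpr filter (minimum count 10, minimum total 15) kept 17475 genes, and CPM are scaled by TMM. A robust quasi-likelihood fit with 1 mean per group over all 12 libraries gave the interaction and the comparisons between groups, two-sided, with Benjamini-Hochberg adjustment over all tested genes. Intervals are at 95%. The product level is the geometric mean of PD-901 times that of 5-azacitidine over that of vehicle, with 0.5 CPM added. Pairs of libraries in a group differed by more than sampling noise. The script was tested on simulated data with changes set in the combination group. It called 11% of the genes changed 2-fold and 53% of those changed 4-fold. A count of 0 genes called therefore does not exclude departures of these sizes. Depth limits genes of few counts, and PCR copies cannot be told from molecules.

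Genes were named as the 5 with the lowest p in each direction (leaving out sex-linked markers, receptor segments, unnamed models, ribosomal pseudogenes and mitochondrial genes), 9 fixed genes (Ptpn11, Lyz2, Dusp6, Etv5, Spry4, Hsph1, Dnmt1, Cdkn1a, Mki67) and up to 4 of each list by lowest p. Some genes that the rule names are not reported here. The members and lists were chosen with earlier results of these data known. Alternatives were DESeq2 1.42.0 as a test or for size factors only, limma-voom (limma 3.58.1), no filter or a stricter one, a linear scale and leaving out each library. Fits without the 4 libraries lowest in Lyz2, or with Lyz2 or Xist as a covariate, were chosen after seeing the data.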

Additional observations from a re-analysis of the deposited data

How the results depend on the processing

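Against 0 genes called higher and 0 lower by the edgeR quasi-likelihood test, no low-count filter gave 112 and 288 of 34450 tested, the DESeq2 Wald test 75 and 213, and limma-voom 0 and 4. A stricter filter and DESeq2 size factors gave 0 and 0. Leaving out 1 library gave 0 to 18 higher and 0 to 132 lower, the upper ends without 5-azacitidine replicate 1, while 7 of the 12 such fits gave 0 and 0. Without the 4 Lyz2-low libraries, a fit chosen after seeing the data, 2 were higher and 28 lower. It leaves 1 vehicle and 1 combination library, each assumed to vary like the other groups, and it shifted the median of all genes to -0.10. With Lyz2 as a covariate the counts were 0 and 0, the smallest adjusted p was 0.472, and 1237 genes had unadjusted p under 0.05. With Xist as a covariate the counts were also 0 and 0, with 0.0587 and 1820 genes. The fit with neither gave 0.0600 and 1871 genes. The cause was not tested in any of these. Etv5 turned from -0.61 to 0.46 without the 4 libraries and to 0.38 with the Lyz2 covariate, and Spry4 from -1.35 to 0.45 and 0.38. Single-gene results otherwise kept their sign. Of the values of a gene under an alternative, 131 passed the threshold and 1670 kept the sign without passing, those on the untested linear scale included. The alternatives calling the most genes were no filter, DESeq2 and leaving out 5-azacitidine replicate 1. No paired analysis was possible because the labels give no replicate numbers shared between groups. The median standard error of 0.40 with 3 mice a group limits which departures could pass.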
